A study of Mus musculus with 6 samples.

Results

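The troponin and tropomyosin genes of mouse calf muscle were followed in 6 Affymetrix arrays: Tnnt1, Tnnt2 and Tnnt3 (troponin T), Tnni1 and Tnni2 (troponin I), Tnnc1 and Tnnc2 (troponin C), and Tpm1, Tpm2 and Tpm3 (tropomyosin). These 10 genes were taken by gene symbol from the 22180 genes measured, each read from the probe set that was brightest on average, and all 10 were found. Gastrocnemius RNA came from 3 mice of the genotype Floxed TAK1, used as controls, and from 3 muscle-specific TAK1-knockout mice. Knockout and control animals were littermates, and the muscle was taken 3 weeks after deletion. The labels describe each array as 1 mouse. The promoter that drove the deletion is not given in the sources used here, nor are age and strain.

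Troponin and tropomyosin make the thin filament of the sarcomere sensitive to calcium. Tropomyosin lies along actin and covers the sites to which myosin binds, troponin T anchors the complex to tropomyosin, troponin I holds the filament in its blocked state, and troponin C binds calcium and releases the block. Fast and slow fibres make different genes of each subunit, so these transcripts are widely used to read fibre type, and the mouse gastrocnemius is mostly a fast muscle. Tnnt3, Tnni2, Tnnc2 and Tpm1 were taken as the fast genes and Tnnt1, Tnni1, Tnnc1 and Tpm3 as the slow ones. Tnnt2 is the cardiac troponin T, which embryonic and regenerating skeletal muscle also makes, and Tpm2 encodes the beta-tropomyosin found in both fibre types.

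The deposited values are log2 probe set levels, and 21 of all 22180 genes (0.0947%) differed between the groups at a limma adjusted p under 0.05, 0.0406% higher and 0.0541% lower in knockouts. The targeted gene Map3k7, which encodes TAK1, had log2 levels of 8.47, 8.32 and 8.42 in controls and 8.20, 8.28 and 8.17 in knockouts (log2 fold change -0.19, adjusted p = 0.686). The groups did not overlap for Map3k7, but the difference did not pass, and the deleted exons are not named in the sources used here. All 8 skeletal muscle markers lay above 5.85, a level taken as background from receptor genes of the nose. The heart genes Myl7, Mybpc3 and Ryr2 lay below it in mean level, and the red blood cell markers were not measured under their listed symbols. The 8 tendon markers all had lower means in knockouts (median log2 fold change -0.80), with 0 called by limma and 5 at an unadjusted p under 0.05, against 8.04% of all genes. Their summed log2 level ran from 11.2 to 11.8 in controls and from 10.3 to 11.4 in knockouts, and their part in the results below was not tested.

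The promoters of the genes on which the results turn are shown first, as the 250 bases before an annotated start in RefSeq (GRCm38.p6). Of the 10 genes, 8 had an entry. Capitals mark E-boxes (CANNTG), the sites of MyoD family factors, and MCAT elements (CATTCC, searched on both strands), the sites of TEAD factors. No E-box overlapped an MCAT element in the windows printed here. For each gene with several starts the first in the table is given.
Tnnt1, chr7:4515976-4516225, minus strand: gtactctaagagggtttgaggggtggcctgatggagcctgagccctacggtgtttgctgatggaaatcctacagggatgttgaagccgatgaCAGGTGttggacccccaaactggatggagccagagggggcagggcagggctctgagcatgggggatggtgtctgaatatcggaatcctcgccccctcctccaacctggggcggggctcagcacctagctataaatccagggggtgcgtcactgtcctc
Tnnc1, chr14:31208062-31208311, plus strand: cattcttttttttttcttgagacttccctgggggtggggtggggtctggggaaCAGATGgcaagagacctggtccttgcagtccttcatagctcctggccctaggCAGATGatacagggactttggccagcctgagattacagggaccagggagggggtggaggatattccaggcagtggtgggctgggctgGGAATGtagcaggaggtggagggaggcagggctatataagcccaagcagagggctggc
Tnni1, chr1:135799171-135799420, plus strand: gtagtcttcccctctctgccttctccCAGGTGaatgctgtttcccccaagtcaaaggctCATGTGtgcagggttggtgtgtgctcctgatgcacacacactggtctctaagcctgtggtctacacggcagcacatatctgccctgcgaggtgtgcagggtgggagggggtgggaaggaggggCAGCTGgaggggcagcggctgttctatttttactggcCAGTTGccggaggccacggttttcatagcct
Tnnc2, chr2:164779735-164779984, minus strand: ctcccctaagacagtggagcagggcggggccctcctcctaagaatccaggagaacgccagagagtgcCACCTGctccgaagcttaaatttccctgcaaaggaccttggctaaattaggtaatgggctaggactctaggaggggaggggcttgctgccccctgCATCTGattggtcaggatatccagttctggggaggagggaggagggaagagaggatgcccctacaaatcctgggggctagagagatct
Tnnt2, chr1:135836084-135836333, plus strand: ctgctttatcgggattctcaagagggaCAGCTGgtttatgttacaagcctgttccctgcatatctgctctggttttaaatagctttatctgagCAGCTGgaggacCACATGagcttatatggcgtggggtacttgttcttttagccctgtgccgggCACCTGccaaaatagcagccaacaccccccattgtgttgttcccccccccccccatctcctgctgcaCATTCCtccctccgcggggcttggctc
The windows of Tnnt1, Tnnc1 and Tnnc2 lie outside every annotated gene span. Those of Tnni1 and Tnnt2 overlap the annotated span of their own gene. The slow genes Tnnt1 and Tnnc1 held 1 and 2 E-boxes and Tnni1 held 4. The fast Tnnc2 held 2 and the cardiac Tnnt2 held 4. An E-box stood in 66.2% of all 32851 RefSeq windows of this length. An MCAT element stood in 12.6% of all windows and in windows of Tnnc1, Tnnt2 and Tpm1, where its first base lay at position -58, -27 and -56 from the start. The CACC element (CCACCC) stood in windows of 5 of the 8 genes with an entry and in 28.1% of all windows. Those 8 genes had 11 windows, so a count of genes is not the same measure as a share of windows. A TATA box (TATAAA) stood in the Tnnt1 window, with its first base at -30, and in 12.4% of all windows.

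Between knockout and control muscle, 0 of the 10 genes passed an adjusted p of 0.05, against 0.0947% of all genes. At an unadjusted p under 0.05, 1 of 10 passed, Tnnt2, against 8.04% of all genes. The groups did not overlap for 2 of 10, Tnnt2 (higher in knockouts) and Tnnc2 (lower), against 13.4% of all genes in either direction. Of the 10, 4 had a higher and 6 a lower mean in knockouts, against 49.9% and 50.1% of all genes. The slow genes Tnnt1, Tnnc1 and Tpm3 lay higher in the knockout mean and the slow gene Tnni1 lay lower, and the median log2 fold change over the 4 was 0.26. That median was -0.07 without control 3 and 0.58 without control 2, so its direction rests on control 3. The 4 fast genes all lay lower in the knockout mean, with a median of -0.05, except that Tnnt3 turned to 0.0096 when arrays were centred on their medians, as Tpm2 turned to 0.0065 after quantile normalization. The median over all genes was -0.0003. Whole muscle was measured, so fewer fibres of a type and less RNA per fibre cannot be told apart.

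**Figure D1:**
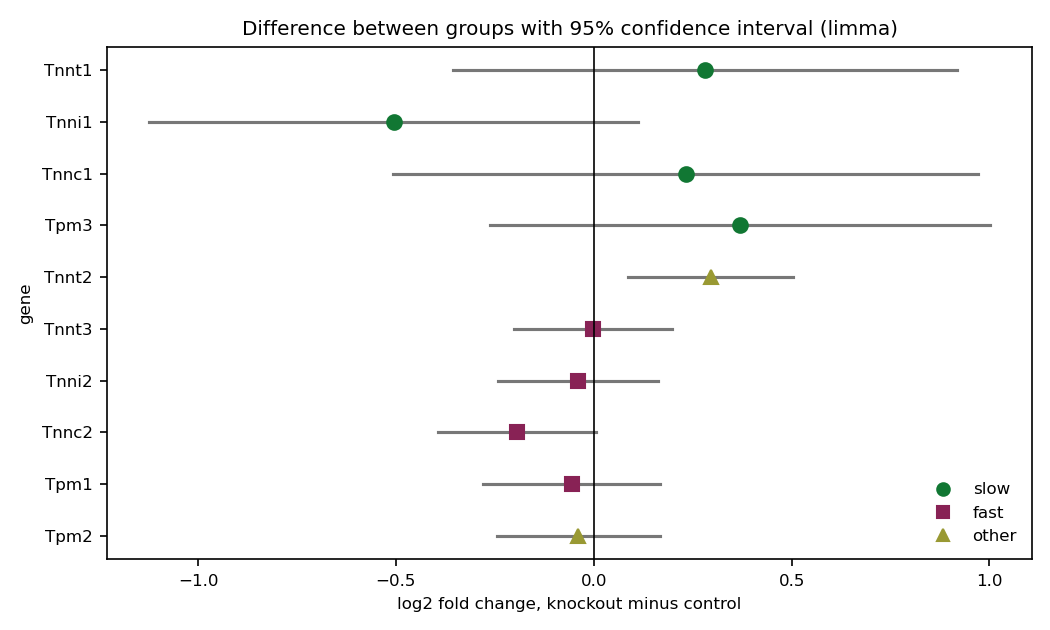
Log2 fold change of each gene, knockout minus control, with its 95% confidence interval from limma; circles are slow genes, squares fast genes and triangles Tnnt2 and Tpm2. The interval of Tnnt2 (0.09 to 0.50) lies above 0 before adjustment, those of the slow genes are the widest, and Tnni1 lies on the other side of 0 from the other slow genes.

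Slow troponin T, Tnnt1, had log2 levels of 8.37, 8.90 and 7.68 in controls 1, 2 and 3 and of 8.27, 8.73 and 8.79 in knockouts 1, 2 and 3. Control 2 was the highest array of all and control 3 the lowest, so the knockouts lay inside the range of the controls. The means were 8.32 ± 0.61 and 8.60 ± 0.28 (SD, n = 3), a log2 fold change of 0.28 (SE 0.28, limma adjusted p = 0.865). It was -0.04 without control 3 and 0.57 without control 2.

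Tnnc1, the troponin C of slow fibres and heart, showed the same order of arrays. Its log2 levels were 9.78, 10.52 and 9.14 in controls, against 9.61, 10.19 and 10.34 in knockouts. The log2 fold change was 0.23 (SE 0.32, limma adjusted p = 0.920). Control 3 again had the lowest value and control 2 the highest, and the log2 fold change was -0.10 without control 3 and 0.59 without control 2.

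The slow alpha-tropomyosin gene Tpm3 had log2 levels of 7.47, 8.16 and 7.05 in controls and 7.55, 7.98 and 8.26 in knockouts. Knockout 3 here lay above control 2, and the groups overlapped. The log2 fold change was 0.37 (SE 0.28, limma adjusted p = 0.813), and it ran from 0.11 without control 3 to 0.67 without control 2. Tpm3 also encodes tropomyosins of non-muscle cells, and it was the one gene of the family with another probe set. That probe set (17302606) had log2 levels of 7.52, 6.84 and 7.08 in controls and 7.40, 7.25 and 7.29 in knockouts, and there control 2 was the lowest array. Which transcripts each Tpm3 probe set covers is not given in the sources used here.

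**Figure D2:**
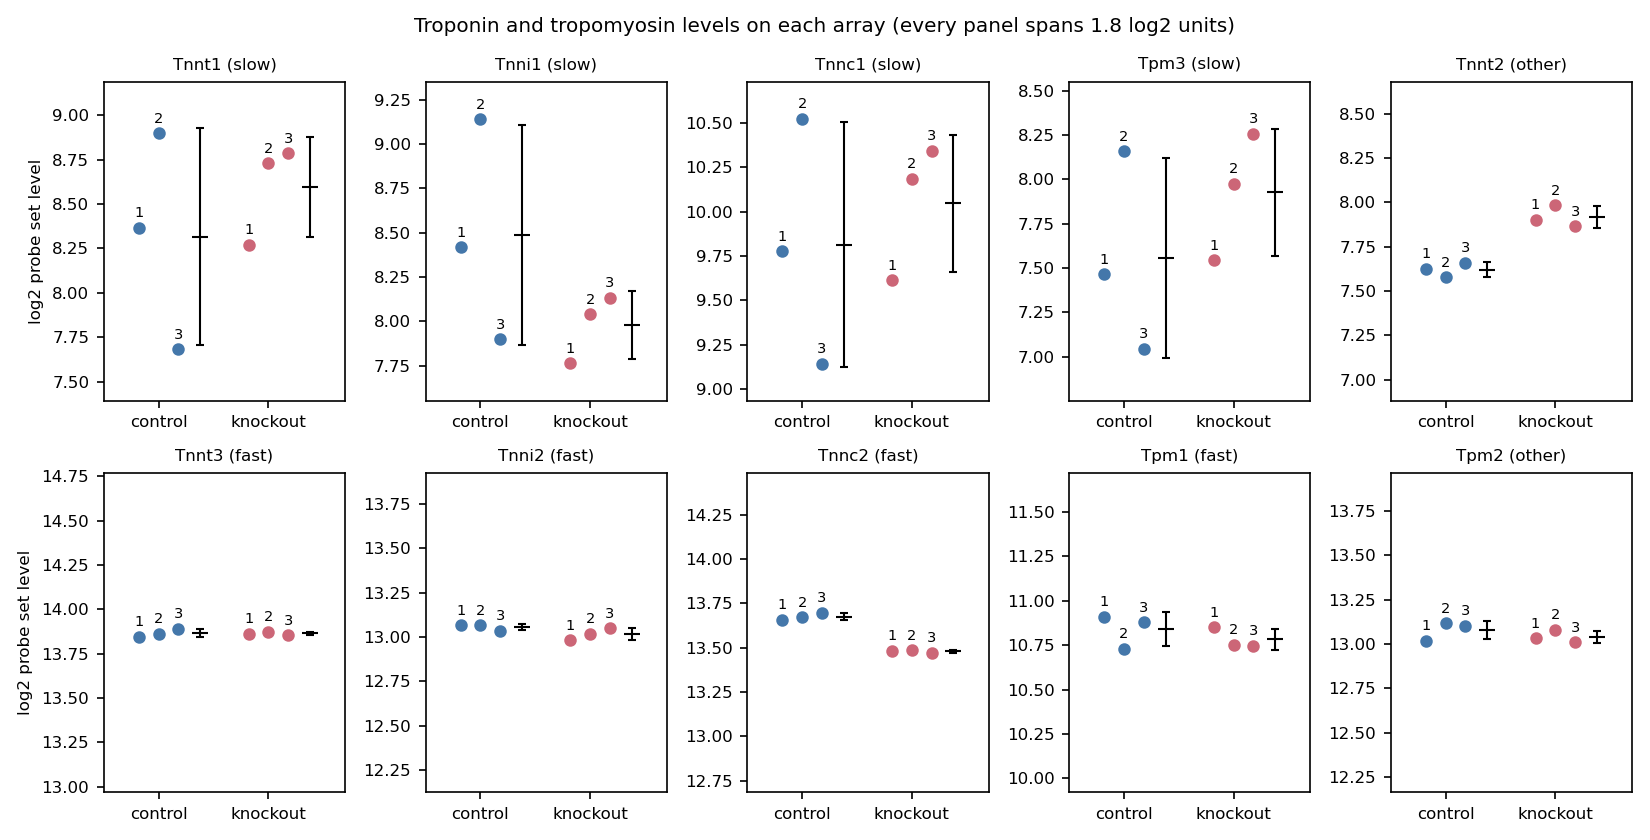
Log2 probe set level of each gene on each array (points, numbered by mouse; blue control, red knockout) with the group mean and SD beside them (n = 3); every panel spans the same number of log2 units. The slow genes in the first 4 panels spread over more than 1 log2 unit across the arrays, while the fast genes below stay nearly flat and Tnnc2 and Tnnt2 separate the groups.

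The slow troponin I gene, Tnni1, parted from the other slow genes in knockout muscle. Its log2 levels were 8.42, 9.14 and 7.90 in controls, against 7.77, 8.04 and 8.13 in knockouts. Control 2 stood above all other arrays, while control 3 lay within the knockout range, so the groups overlapped. The means were 8.49 ± 0.62 and 7.98 ± 0.19 (SD, n = 3). The knockout mean was 1.42-fold lower (log2 fold change -0.51, SE 0.27, limma adjusted p = 0.711). Without control 2 the log2 fold change was -0.18, and without control 3 it was -0.80.

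Set against the mean of Tnnt1, Tnnc1 and Tpm3 on the same array, all taken from their control means, Tnni1 lay at -0.04, 0.02 and 0.02 log2 units in controls 1, 2 and 3. In knockouts 1, 2 and 3 it lay at -0.63, -0.85 and -0.92. In control mice Tnni1 therefore followed the other slow genes through a range of over 1 log2 unit, and in all 3 knockouts it lay below them. The difference between groups was -0.80 on the log2 scale, and it ran from -0.88 to -0.74 when 1 array was left out. It joins Tnni1's own log2 fold change of -0.51 with a rise of 0.29 in the mean of Tnnt1, Tnnc1 and Tpm3. Of the 22177 genes outside these 3, Tnni1 included, 0.564% were lower in every knockout than in any control on this measure, and 0.0451% were higher. In 0.0135% (3 genes, Tnni1 among them) the control SD was at most that of Tnni1, 0.036. Subtraction gives a gene that does not follow these 3 their own control SD of 0.62, so most such genes overlap. On the genes' own levels 6.65% were lower in every knockout. The shares on this measure therefore do not show how rare the Tnni1 pattern is. This contrast was chosen after its values were seen and carries no test.

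The other genes that kept as close in controls were Atp2a2 and the pseudogene Klrb1-ps1. Atp2a2 encodes the calcium pump of slow fibres and heart. Relative to Tnnt1, Tnnc1 and Tpm3 it lay at -0.02, 0.03 and -0.002 in controls and at 0.29, 0.24 and 0.29 in knockouts, which is above them and opposite to Tnni1. Its own log2 levels were 10.53, 11.23 and 9.97 in controls, against 10.78, 11.22 and 11.44 in knockouts (log2 fold change 0.57, limma adjusted p = 0.703).

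Of the 15 slow fibre proteins outside the family, Myl3, the slow and ventricular essential light chain, was the only one whose values relative to Tnnt1, Tnnc1 and Tpm3 lay all lower in knockouts. They were -0.45, 0.15 and 0.30 in controls, against -0.57, -0.47 and -0.66 in knockouts. Atp2a2 was the only one whose values lay all higher. Of the 15, all but Atp2a2, Casq2, Csrp3 and Ankrd2 had a lower knockout mean on this measure. The mean of Tnnt1, Tnnc1 and Tpm3 was itself 0.29 higher in knockouts, so an unchanged gene reads as lower here. Fabp3, with an own log2 fold change of 0.008, read -0.29. On their own levels 10 of the 15 were higher and 5 lower in the knockout mean. The slow myosin heavy chain Myh7 overlapped, at 0.11, 0.05 and -0.16 in controls and -0.42, -0.21 and -0.07 in knockouts.

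**Figure D3:**
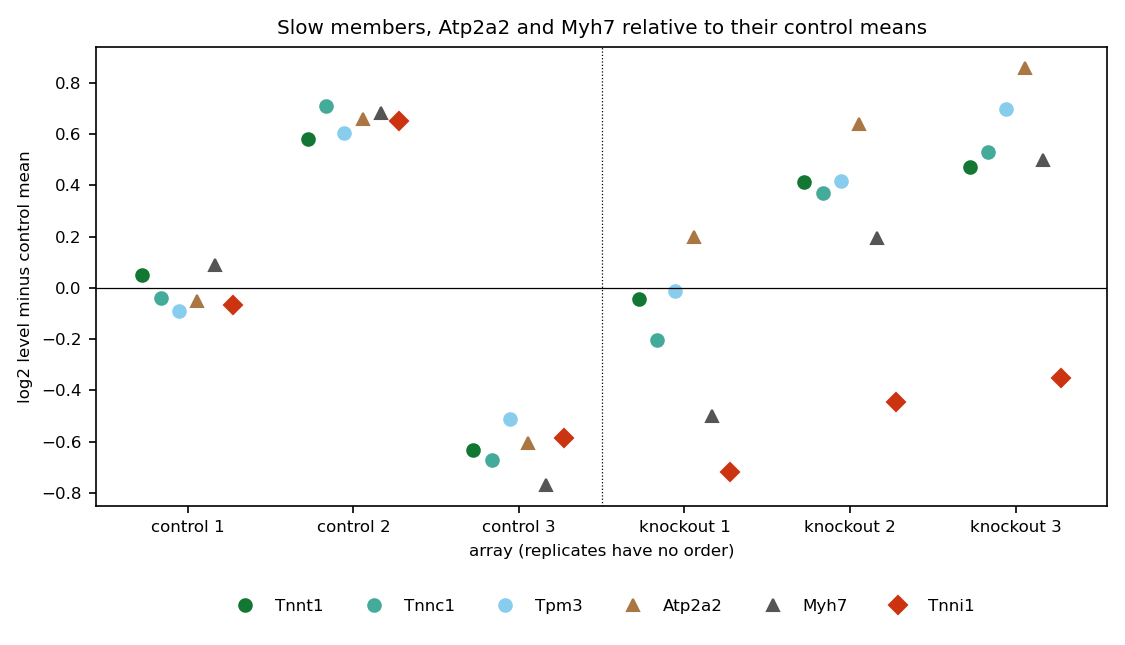
Log2 level minus the gene's own control mean for the 4 slow troponin and tropomyosin genes, Atp2a2 and Myh7, on each of the 6 arrays. The 6 genes lie close together on each control array, whereas on the knockout arrays Tnni1 (diamonds) is the lowest of them, between -0.72 and -0.35, and Atp2a2 the highest, between 0.20 and 0.86.

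Among the fast genes, Tnnc2, the fast troponin C, was the one whose groups did not overlap. Its log2 levels were 13.66, 13.67 and 13.70 in controls, against 13.48, 13.49 and 13.47 in knockouts. The knockout mean was 1.14-fold lower, with means of 13.68 ± 0.021 and 13.48 ± 0.0085 (SD, n = 3). The log2 fold change of -0.20 (SE 0.09) did not pass (limma adjusted p = 0.625, exact permutation p = 0.1, two-sided, the smallest that 3 against 3 arrays can give). After a further quantile normalization it was -0.07, and the adjusted p ran from 0.353 to 0.882 over all alternatives.

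Tnnc2 sits close to the top of the arrays' range (the maxima were 14.31 to 14.34), a region in which differences can be compressed. Of the 100 brightest genes, 46 had a lower mean in knockouts (41 after quantile normalization), and their median log2 fold change was 0.01. In 21 of them every knockout was below every control, against 6.65% of all genes. Counting Tnnc2 itself, 11 of the 100 were lower by at least as much as Tnnc2. Skeletal alpha-actin, Acta1, the core of the thin filament, was one of the bright genes whose groups parted by very little, at 14.11, 14.13 and 14.11 in controls, against 14.07, 14.06 and 14.07 in knockouts.

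The other fast genes were close to level. Fast troponin T, Tnnt3, had log2 levels of 13.85, 13.86 and 13.89 in controls and 13.86, 13.87 and 13.86 in knockouts, a log2 fold change of -0.002 (limma 95% confidence interval -0.20 to 0.20). Fast troponin I, Tnni2, had 13.07, 13.07 and 13.03 in controls and 12.98, 13.02 and 13.05 in knockouts (log2 fold change -0.04, 95% confidence interval -0.24 to 0.16). The groups overlapped for both genes, and these intervals leave room for differences of about that size in either direction. Because limma draws each gene's variance towards that of all genes, their width is not these genes' own spread. The within-group SDs were 0.017 for Tnnt3 and 0.027 for Tnni2, at levels near the top of the arrays' range. Tnni2 and Tnnt3 lie beside each other on chromosome 7 in RefSeq, with only Lsp1 between them, as Tnni1 and Tnnt2 do on chromosome 1 with only Lad1 between them. The first pair were both close to level, while Tnni1 and Tnnt2 lay on opposite sides of 0.

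Alpha-tropomyosin of fast fibres and heart, Tpm1, had log2 levels of 10.91, 10.73 and 10.88 in controls and 10.85, 10.75 and 10.75 in knockouts (log2 fold change -0.06, limma adjusted p = 0.941). Beta-tropomyosin, Tpm2, had 13.02, 13.12 and 13.10 in controls and 13.03, 13.08 and 13.01 in knockouts (log2 fold change -0.04, adjusted p = 0.959). The groups overlapped in both. A probe set level sums over splice forms, of which RefSeq lists 38 for Tpm1 and 50 for Tnnt3, against 1 each for Tnnc1, Tnnc2 and Tnni2. Shifts between splice forms of the tropomyosins and of troponin T therefore cannot be read here.

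Cardiac troponin T, Tnnt2, was higher on every knockout array. Its log2 levels were 7.63, 7.58 and 7.66 in controls, against 7.90, 7.98 and 7.87 in knockouts, so that all 3 knockouts lay above all 3 controls. The means were 7.62 ± 0.04 and 7.92 ± 0.06 (SD, n = 3), which is 22.7% higher in knockouts. The log2 fold change of 0.30 (SE 0.09) had the smallest p of the 10 genes and did not pass over all genes (limma unadjusted p = 0.0111, adjusted p = 0.440, exact permutation p = 0.1, two-sided). The adjusted p ran from 0.204 to 0.759 over all alternatives. The fold change lay between 0.26 and 0.32 when any 1 array was left out.

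Tnnt2 was also set beside other genes of developing or regenerating fibres. Of 14 measured, limma called 0 in either direction and 3 had an unadjusted p under 0.05, against 8.04% of all genes. In this list 3 had a higher and 11 a lower mean in knockouts, against 49.9% and 50.1% of all genes, with a median of -0.10. In 3 of the 14 every knockout was below every control, against 6.65% of all genes. Embryonic myosin, Myh3, had log2 levels of 6.38, 6.66 and 6.86 in controls and 5.68, 5.65 and 6.04 in knockouts (log2 fold change -0.84, limma adjusted p = 0.146). Its knockout mean of 5.79 lay below the background level of 5.85. The embryonic light chain Myl4 (-0.41, adjusted p = 0.446) and the growth factor Igf2 (-0.49, adjusted p = 0.440) were the others of these 3. Cardiac alpha-actin, Actc1, another thin filament gene of heart and embryonic muscle, overlapped (-0.02, adjusted p = 0.994).

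Heart markers stood low in both groups. Of 7, 4 had means above the background level, their summed log2 level was 8.61 to 8.79 in controls and 8.55 to 8.73 in knockouts, and 0 were called by limma or reached an unadjusted p under 0.05. The cardiac troponin I, Tnni3, which is not among the 10 genes, lay between 6.20 and 6.53 on all arrays (-0.12, limma adjusted p = 0.854).

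Slow and fast genes of the same subunit were set against each other within each array, from their control means. Slow over fast troponin T (Tnnt1 minus Tnnt3) was 0.07, 0.59 and -0.66 in controls and -0.04, 0.41 and 0.48 in knockouts. For troponin C (Tnnc1 minus Tnnc2) the values were -0.02, 0.71 and -0.69 in controls, against -0.01, 0.56 and 0.73 in knockouts. Tropomyosin (Tpm3 minus Tpm1) gave -0.16, 0.71 and -0.55 in controls, against -0.02, 0.51 and 0.79 in knockouts. The groups overlapped for these subunits, and the group means differed by 0.28, 0.43 and 0.43 towards slow, less than the control SDs of 0.62, 0.70 and 0.65. Troponin I (Tnni1 minus Tnni2) went towards fast, at -0.08, 0.64 and -0.56 in controls and -0.65, -0.41 and -0.35 in knockouts, a difference of -0.47 with a control SD of 0.61.

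The fast and slow genes differed in how far mice of the same group lay apart. Over the 12601 genes above background, the median within-group SD was 0.13 log2 units and the 90th percentile was 0.24. The slow genes had SDs of 0.46 to 0.56, all above the 98th percentile, and Tnnt3, Tnni2 and Tnnc2 had SDs of 0.016 to 0.027, all below the 1st percentile. Tpm1, Tpm2 and Tnnt2, with 0.080, 0.045 and 0.051, also lay under the median. The small SDs of the bright fast genes belong to levels near the top of the arrays' range.

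**Figure D4:**
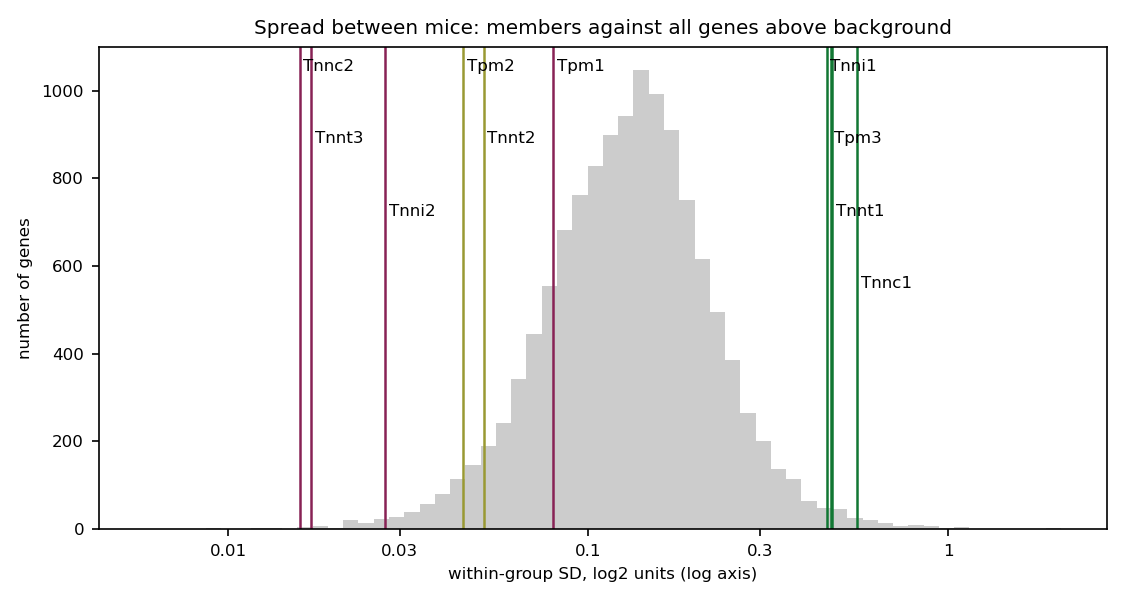
Histogram of the within-group SD of the log2 level (pooled over both groups, log axis) for the 12601 genes above background, with a line for each troponin and tropomyosin gene (green slow, purple fast, olive Tnnt2 and Tpm2). The slow genes sit together at 0.46 to 0.56 in the upper tail and the bright fast genes in the lower tail.

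Genes with the most similar pattern over the 6 arrays were found by the root mean square difference of log2 levels, each centred on its own mean, for the genes of the family with the widest range. For Tnnc1 the nearest of all genes was Tnnt1 (0.093 log2 units), followed by Tpm3 (0.115) and Myh7 (0.133). For Tnnt1 the nearest were Tnnc1 and Tpm3 (0.114). The next nearest of Tnnc1 were Olfr765 and Gm6909, and those of Tnnt1 were Olfr765, Olfr1230 and Vmn2r59, all at levels below background. For Tnni1 the 5 nearest were Zfp981, Gm11346, Olfr1140, Vmn1r227 and Vmn1r72, at 0.182 to 0.185, and all lay below background on every array. Tnnc1 stood at rank 2038 from Tnni1, with a difference of 0.388. The values describe these 6 arrays only.

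Among 30 other thin filament and Z-disc genes, 1 was called, against 0.0947% of all genes. The called gene was Klhl40, a stabiliser of nebulin and leiomodin. It had log2 levels of 9.00, 8.81 and 9.02 in controls and 9.81, 10.09 and 9.85 in knockouts (log2 fold change 0.97, limma adjusted p = 0.0327). The list had 11 genes with a higher and 19 with a lower mean in knockouts, against 49.9% and 50.1% of all genes. Its median was -0.03. Groups did not overlap in 3 higher and 6 lower genes, against 6.74% and 6.65% of all genes. The actin-binding protein Xirp1 (1.06, adjusted p = 0.301) and the Z-disc crosslinker Actn2 (0.43, adjusted p = 0.513) were higher on all knockout arrays, and the formin Fhod1 (-0.45, adjusted p = 0.402) was lower. The non-muscle tropomyosin Tpm4 overlapped (0.21, adjusted p = 0.842).

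Of fibre-type proteins outside the family limma called 0, and 1 of 15 slow and 5 of 19 fast ones had an unadjusted p under 0.05, against 8.04% of all genes. Of 15 slow fibre proteins, 10 were higher and 5 lower in the knockout mean, against 49.9% and 50.1% of all genes. Their median was 0.06. Groups did not overlap in 1 higher and 1 lower of the 15, close to the 6.74% and 6.65% of all genes. Mybpc1, the slow myosin-binding protein C, was lower on all knockout arrays (-0.12, limma adjusted p = 0.816). Csrp3, a stretch-associated Z-disc protein, was higher on all knockout arrays (0.92, limma adjusted p = 0.277), and Myh7 had 10.36, 10.95 and 9.50 in controls and 9.77, 10.46 and 10.77 in knockouts (0.06, adjusted p = 0.986). Of 19 fast fibre proteins, 8 were higher and 11 lower, against the same 49.9% and 50.1%, with a median of -0.01. In 6 of the 19 every knockout was below every control, against 6.65% of all genes, and in 0 the reverse held. Most of the 19 are very bright, and of the 100 brightest genes 21 were lower in this way. The phosphorylase kinase subunit Phka1 (-0.82, adjusted p = 0.136), the light chain kinase Mylk2 (-0.50, adjusted p = 0.233) and the fast myosin Myh1 (-0.49, adjusted p = 0.418) were the largest of these. The fast myosins Myh4 (-0.003) and Myh2 (0.08) and the fast calcium pump Atp2a1 (-0.01) overlapped, with adjusted p of 0.998, 0.966 and 0.991.

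Of 32 measured regulators of fibre type, limma called 0, and 5 had an unadjusted p under 0.05, against 8.04% of all genes. In this list 8 had a higher and 24 a lower mean in knockouts, against 49.9% and 50.1% of all genes, and the median was -0.08. Tead4, a TEAD factor, had log2 levels of 7.20, 7.05 and 6.82 in controls and 7.59, 7.61 and 7.59 in knockouts (0.58, limma adjusted p = 0.194). The brighter TEAD factor Tead1 went the other way. It had 10.39, 10.60 and 10.67 in controls and 10.16, 10.20 and 10.24 in knockouts (-0.35, limma adjusted p = 0.425). The TEAD cofactor Vgll2 was lower on all knockout arrays (-0.76, adjusted p = 0.233). Ppargc1a, a coactivator of oxidative and slow fibre genes, was higher on all of them (0.59, adjusted p = 0.351). Of 17 regulators of muscle splicing, limma called 0, and 2 had an unadjusted p under 0.05, against the same 8.04%. Here 6 were higher and 11 lower in the knockout mean, against 49.9% and 50.1% of all genes, with a median of -0.07. The knockout values of Mbnl1 (-0.33, adjusted p = 0.561), Mbnl2 (-0.24, adjusted p = 0.646) and Celf1 (-0.23, adjusted p = 0.621), which choose exons of troponin T, all lay below the control values.

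**Figure D5:**
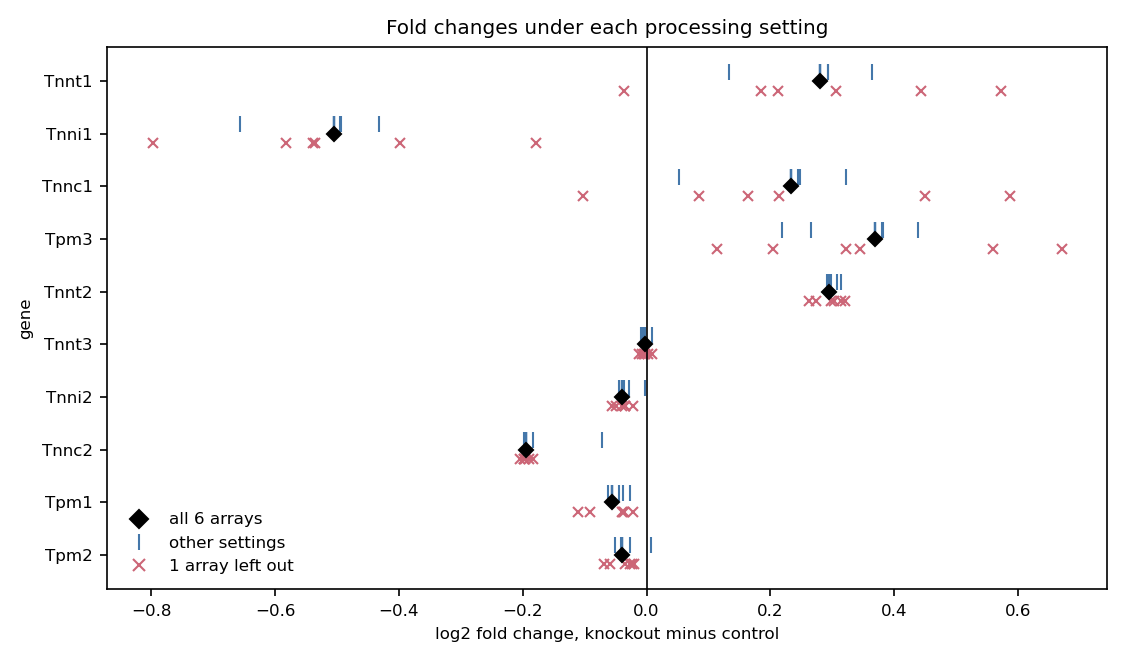
Log2 fold change of each gene (knockout minus control) with all 6 arrays (diamonds), under other processing settings (bars) and with 1 array left out (crosses). Leaving out control 3 takes Tnnt1 to -0.04 and Tnnc1 to -0.10, whereas Tnni1 and Tnnc2 stay below 0 and Tnnt2 and Tpm3 above 0 in all settings shown.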

How the data were processed

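The deposited table holds log2 probe set levels, 1 column per array. RMA, oligo and limma are named per the submitters' processing notes, without versions or roles. The genome build is not given in the sources used here. The RMA method makes arrays alike in distribution and sums probes on a log2 scale. Differences in array levels can be compressed near background and near the top of the range. Per the labels' protocols, Trizol-extracted total RNA was labelled with biotin. Of 41345 probe sets, 23521 had 1 gene symbol in GEO's platform annotation, 1814 several and 16010 none. Symbols were checked against RefSeq (GRCm38.p6), where 23328 matched and 0 needed an update.

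The group comparison used limma 3.58.1 and R 4.3.3 (lmFit, eBayes, group means only, two-sided, Benjamini-Hochberg over all 22180 genes), and the fit was tested on simulated data. The background level of 5.85 is the level under which 95% of 1394 smell and pheromone receptor genes lay by their mean, and it decided no call. Fold changes are on the log2 scale. The number of arrays limits the precision, and each array is taken as 1 mouse. The gene family, the gene lists and the tests were chosen with earlier results of these data known. All 10 genes were named, with the targeted gene, a fixed set of fibre-type genes (Acta1, Myh7, Myh4, Myh1, Myh2, Atp2a1, Atp2a2) and the 5 nearest neighbours of the 3 widest genes. In each list other than the cell type markers, the called genes were named or, failing these, up to 3 with the largest difference among those whose groups did not overlap. Cell type markers were not named by this rule. The smooth muscle, fibroblast, endothelial, macrophage and satellite cell markers are not described here. Myl3, Casq2, Ankrd2, Tead1, Klrb1-ps1, Actc1, Tnni3, Tpm4, the heart genes at background and, beside the called Klhl40, Xirp1, Actn2 and Fhod1 were named after their values were seen. Plots were drawn with matplotlib 3.10.9.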

Additional observations from a re-analysis of the deposited data

How the results depend on the processing

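None of the 10 genes passed an adjusted p of 0.05 under any of the 17 alternatives run, of which 15 were planned and the slow fibre covariate and each gene's own variance were chosen after seeing the data. Of 170 gene and setting combinations, 164 kept the direction. Those that turned were Tpm2 after quantile normalization (0.0065), Tnnt3 with arrays centred on their medians (0.0096), and, with 1 array left out, Tnnt3 (-0.0126 to 0.0093, above 0 without control 3 or knockout 3), Tnnt1 (-0.0366 to 0.57) and Tnnc1 (-0.10 to 0.59), the last pair below 0 without control 3. Over the same fits Tnni1 ran from -0.80 to -0.18 and Tpm3 from 0.11 to 0.67. The slow median ran from -0.0696 without control 3 to 0.5798 without control 2. The fast median was -0.0236 after quantile normalization and -0.0725 to -0.0279 with 1 array left out. The count over all genes was 6 with every probe set tested, 53 with genes above the median only, 45 when the genes had to exceed the background level, 36 with an intensity trend and robust prior, 7 with the slow fibre covariate, 0 with each gene's own variance (1612 at an unadjusted p under 0.05), and 2 to 11 with 1 array left out. With the median of the slow fibre proteins as a covariate, Tnni1 had a log2 fold change of -0.66 (limma adjusted p = 0.421, the lowest of a range up to 0.875 over all alternatives). Deviations of same-numbered mice correlated at 0.08, 0.21 and -0.07 across genes. Differently numbered mice were not set beside them, so whether the numbers pair the arrays was not settled. With the replicate block 17 genes and 0 of the 10 were called.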
